A study of Homo sapiens with 2 samples.

Results

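Antisense long noncoding RNAs, named for the gene on whose opposite strand they lie, are described here in a human lung cancer cell line that was given an excess of LINC00472, another long noncoding RNA. The members are the rows of the deposited gene table whose symbol ends in -AS and 1 digit and whose read counts sum to at least 100 over both libraries. This gave 263 antisense RNAs of 1106 rows with such a symbol, in a table of 27685 genes. Of the other 843 rows, 482 had no count in either library and 361 had 1 to 99 counts. RefSeq types 257 of the 263 as long noncoding RNAs, 2 as antisense RNAs, 2 as transcribed pseudogenes and 2 as protein-coding. The protein-coding ones are MMP24-AS1 and NCBP2-AS2, and all were kept because the choice goes by symbol. The minimum fell between RORA-AS1 (70 counts with LINC00472 and 30 in the control) and MATN1-AS1 (36 with LINC00472, 64 in the control), which sum to 100, and CCNT2-AS1 (43 with LINC00472, 56 in the control) and GATA6-AS1 (77 with LINC00472, 21 in the control), which sum to 99 and 98. The choice thus used the summed count of each row and not its ratio between libraries. A low row reaches the sum more easily where it is high, so the number of members with enough counts in each library is given beside the results.

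The cells were NCI-H838, an established line of non-small cell lung adenocarcinoma. The LINC00472 culture was transiently transfected with pCDH-LINC00472, a plasmid with the full-length RNA, and the control culture with the empty pCDH plasmid, both with the lipid reagent Lipofectamine 2000. Total RNA was taken with TRIzol 48 hours later and sequenced as 1 library per group, so the spread between cultures is unknown and no p-value is given. The comparison asks which transcripts differ when LINC00472 is supplied in excess. The RNA came from whole cultures, in which fewer cells making a transcript and less of it per cell cannot be told apart, and the share of cells that took up a plasmid is not given in the sources used here.

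An antisense RNA is read from the strand opposite to its partner, the gene it is named after. Many start beside the partner's own start site and run the other way out of a shared promoter, which is called a divergent or head-to-head arrangement. Others overlap the partner's last exons tail to tail or lie inside it. Some antisense RNAs are known to act on the partner through its chromatin, its splicing or its RNA, and others work elsewhere in the cell or have no known role. Their level can therefore follow the partner, oppose it or vary apart from it, and each pair has to be read on its own.

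Gene counts summed to 21093055 in the LINC00472 library, over 18238 genes, and to 54823706 in the control, over 18910 genes. LINC00472 itself had 5655 counts in the library named for it against 2563 in the control, or 25.3 against 4.74 FPKM (the authors' level per transcript length and library size). That is 4.69-fold after scaling, log2 2.23 with a 95% counting interval of 2.16 to 2.30. Of 5 epithelial markers, KRT8 had 26.5 FPKM with LINC00472 and 94.2 in the control, KRT18 23.9 with LINC00472 and 157 in the control, EPCAM 1.18 with LINC00472 and 1.19 in the control, and KRT19 0 with LINC00472 and 0.520 in the control. CDH1 ran the other way from KRT8 and KRT18 and was 1.38-fold higher with LINC00472 (log2 0.47, interval 0.23 to 0.71), short of a 2-fold ratio. Of 2 lung adenocarcinoma markers, NAPSA had 2.40 FPKM with LINC00472 and 0.742 in the control, and NKX2-1 was without a count in both. Of 6 markers of leukocytes, endothelium and fibroblasts, CD3E had no count in either library. The other 5 lay between 0 and 1.70 FPKM in the LINC00472 library and between 0.0237 and 1.36 in the control, with COL1A1 the highest in both. The shift in KRT8 and KRT18 moved with the groups, and its part in the results was not tested.

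Antisense RNAs were more abundant in the LINC00472 library. Together they took 0.405% of its gene counts (exact Clopper-Pearson 95% interval 0.402% to 0.408%), or 85402 counts, and 0.239% of those of the control (0.238% to 0.241%), or 131251 counts. Their median level was 3.37 FPKM in the LINC00472 library, over a range of 0.471 to 159.8. In the control it was 1.95 FPKM, over a range of 0.0942 to 345.9. Every member was counted in both libraries, with at least 13 counts in the LINC00472 library and at least 14 in the control. Whether the libraries marked strand is not given in the sources used here, so reads of an antisense RNA and of partner exons on the other strand cannot be told apart where they overlap. Annotated exons of 156 members overlap those of the partner.

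A gene is called higher or lower here where the ratio of scaled counts, LINC00472 over control, is at least 2-fold and its exact 95% counting interval excludes equality. By this rule 108 of the 263 antisense RNAs were higher and 16 were lower, or 41.1% and 6.08%, and 139 were neither. Those lower include NCBP2-AS2, which is protein-coding in RefSeq. Over all 13482 genes with a summed count of at least 100, 14.5% were higher and 24.7% were lower. The median log2 ratio of antisense RNAs was 0.72, with quartiles of -0.13 and 1.44, against -0.23 over all those genes. Long noncoding RNAs without an antisense name had a share at least as large: 303 of 588 were higher, or 51.5%, and 37 were lower, and the median was 1.06. Of 12049 protein-coding genes 1230 were higher, or 10.2%, and 3222 were lower, and the median was -0.34. The direction of the shift was thus shared with other long noncoding RNAs. It held under other scalings, which moved the median of all genes to 0.05 with total counts and to 0.15 with upper quartile factors. With total counts 51.3% of members were higher and 4.18% lower, against 20.2% and 17.0% of all genes, and with upper quartile factors 54.4% and 3.42%, against 22.7% and 14.8%. The control library was 2.13 times as deep after TMM scaling, so an antisense RNA with equal counts in both libraries stands 2.13-fold higher in the LINC00472 library.

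**Figure D1:**
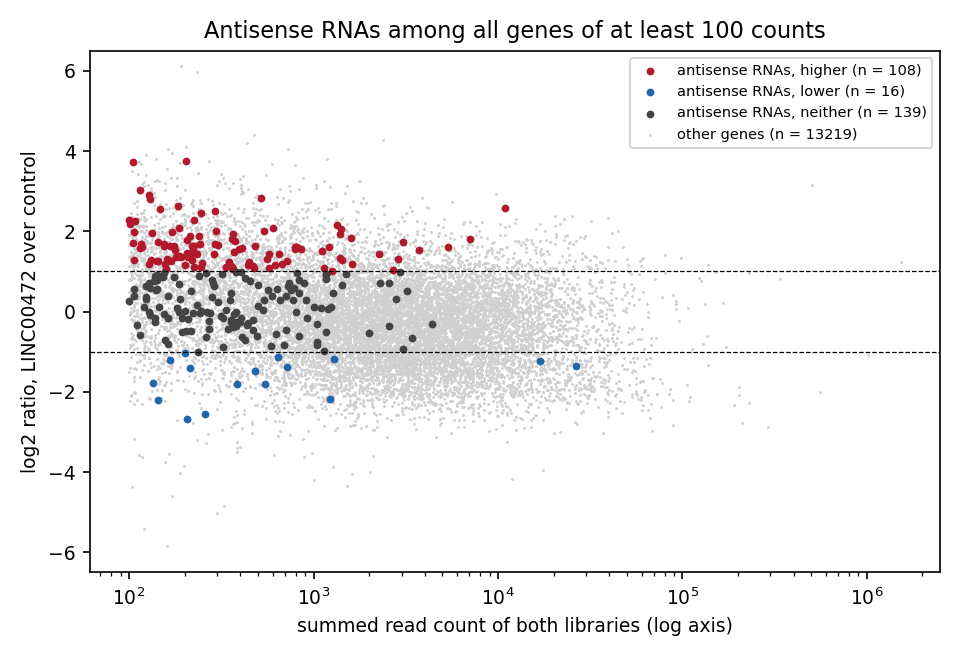
Log2 ratio of scaled counts (LINC00472 over control, vertical axis) against the summed count of both libraries (log axis) for each gene with at least 100 counts; antisense RNAs are drawn over the other genes, of which 31 lie outside the drawn range. Antisense RNAs lie above equality more often than below it, with a median of 0.72 against -0.23 for all genes.

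Low counts alone went with higher ratios in all genes, so members were also set beside genes of similar counts. Below 200 counts, 46.1% of 76 antisense RNAs were higher against 41.1% of all genes, and from 200 to below 500 counts 40.8% of 98 against 32.5%. From 500 to below 2000 counts 36.2% of 69 were higher against 14.2%, and at 2000 counts or more 40% of 20 against 7.31%. The share of antisense RNAs called higher therefore stayed between 36.2% and 46.1% in all 4 bands, while that of all genes fell with the count. In the same bands 56.2%, 54.2%, 47.3% and 38.8% of the other long noncoding RNAs were higher. Among the 143 antisense RNAs with at least 100 counts in each library, 58 were higher and 6 lower, and the median was 0.78. The control was 2.13 times as deep after scaling, so 100 counts ask for a higher scaled level in the LINC00472 library. This subset thus leans toward higher ratios by its choice, and it was not set beside all genes under the same cut. The 25 members with 100 counts in the LINC00472 library alone and the 45 with 100 in the control alone lean in opposite directions by that choice, so no count or median over them is read. The other 50 members had fewer than 100 counts in each library. This leans toward higher ratios by choice, because the control was deeper, so no count or median over them is read either. STX18-AS1, KCNK15-AS1, MIF-AS1 and CBR3-AS1, named below, are among these 50. Many of the members with the largest ratios, named next, belong to sets that lean by their choice, and their values are given as descriptions.

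**Figure D2:**
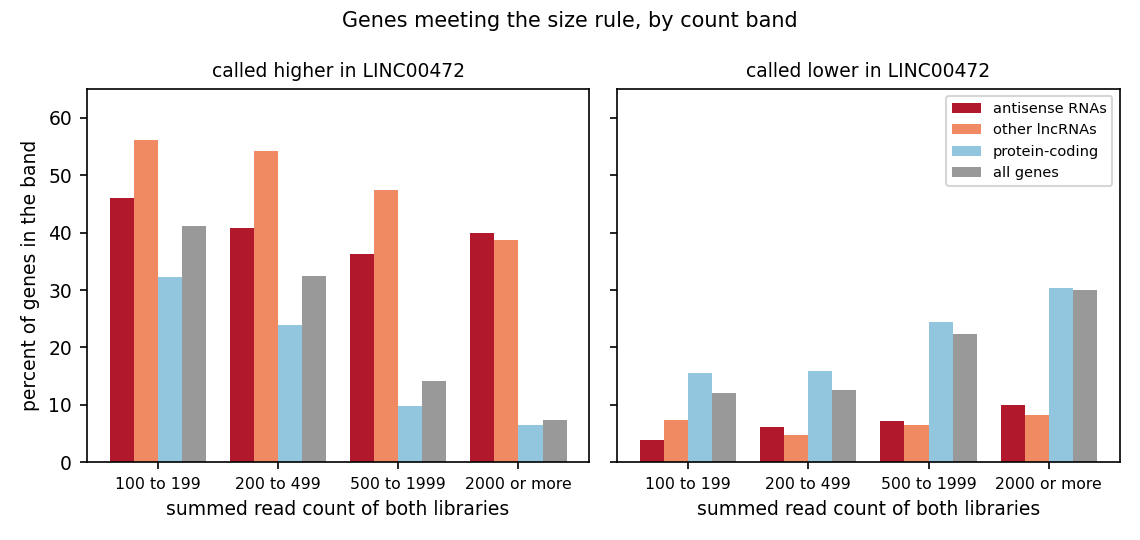
Percent of genes called higher in the LINC00472 library in 4 bands of summed count, with antisense RNAs first and then other long noncoding RNAs, protein-coding genes and all genes. In the band of 2000 counts or more, 40% of antisense RNAs were higher against 7.31% of all genes.

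The antisense RNAs with the highest ratios were scarce in the control. GMDS-AS1 (gene ID 100508120), named after the gene for the first enzyme of GDP-fucose synthesis, had 176 counts or 4.70 FPKM with LINC00472 and 27 counts or 0.289 FPKM in the control. STX18-AS1 (gene ID 100507266), named after a SNARE protein of the endoplasmic reticulum, had 91 counts or 1.55 FPKM with LINC00472 and 14 counts or 0.0942 FPKM in the control. Both were far higher in the LINC00472 library, by 13.6-fold (log2 3.76, counting interval 3.20 to 4.44) and 13.2-fold (log2 3.73, interval 2.97 to 4.72). KCNK15-AS1, beside a potassium channel gene, had 91 counts with LINC00472 and 23 in the control (log2 3.04). DICER1-AS1 (gene ID 400242), beside the gene for the ribonuclease that cuts microRNA precursors, had 100 with LINC00472 and 28 in the control (log2 2.90, interval 2.31 to 3.59).

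The 2 members of this group with at least 100 counts in each library have narrower intervals. Of them CCDC18-AS1 is among the 5 members of highest mean level, and FAM13A-AS1 is not. CCDC18-AS1 had 8040 counts or 84.8 FPKM with LINC00472 and 2872 counts or 12.5 FPKM in the control, a 5.96-fold ratio (log2 2.57, interval 2.51 to 2.64). FAM13A-AS1, named after a gene linked to lung function in human genetic studies, had 402 counts or 5.32 FPKM with LINC00472 and 120 counts or 0.655 FPKM in the control, a 7.09-fold ratio (log2 2.83, interval 2.54 to 3.14). The other 4 of the 10 with the highest lower interval bound were called higher with log2 ratios between 2.45 and 2.80. They are SLC44A3-AS1, beside a choline transporter-like gene, RRS1-AS1, beside a gene of ribosome assembly, MANEA-AS1, beside a mannosidase of the Golgi, and KLHL7-AS1, beside an adaptor of a ubiquitin ligase. Each of these 4 had at least 100 counts in the LINC00472 library and fewer than 100 in the control. TTN-AS1 and ZFPM2-AS1, among the 5 members of highest mean level, were higher too. TTN-AS1, opposite the giant muscle protein gene titin, had 4381 counts or 51.1 FPKM with LINC00472 and 2660 counts or 12.3 FPKM in the control (log2 1.81). ZFPM2-AS1 had 843 counts or 45.5 FPKM with LINC00472 and 784 counts or 16.2 FPKM in the control (log2 1.19, and 0.92 when adjusted for GC content and for the lengths of transcript and introns, which ends its call).

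The 16 antisense RNAs called lower included the 2 most abundant ones of the control. LRRC75A-AS1, which is now called SNHG29 and carries the small nucleolar RNA genes SNORD49A, SNORD49B and SNORD65 in its span, had 4136 counts or 159.8 FPKM with LINC00472 and 22479 counts or 345.9 FPKM in the control. FGD5-AS1 had 2826 counts or 31.7 FPKM with LINC00472 and 14057 counts or 65.6 FPKM in the control. They were 2.55-fold lower (log2 -1.35, interval -1.40 to -1.30) and 2.34-fold lower (log2 -1.22, interval -1.28 to -1.17). Both sit near the 2-fold bound, and their partners LRRC75A and FGD5 were under the count minimum. With total-count scaling FGD5-AS1 had a log2 ratio of -0.94, and with upper quartile factors FGD5-AS1 had -0.84 and LRRC75A-AS1 -0.96, which end the call. Adjusted for GC content and for the lengths of transcript and introns, the log2 ratio was -0.95 for FGD5-AS1 and -0.74 for LRRC75A-AS1, also short of the rule.

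RNASEH1-AS1 (gene ID 100506054), beside the gene for an enzyme that removes RNA from RNA-DNA hybrids, had 116 counts or 3.84 FPKM with LINC00472 and 1110 counts or 15.1 FPKM in the control. It was 4.49-fold lower (log2 -2.17, interval -2.46 to -1.89). VLDLR-AS1, beside the very low density lipoprotein receptor gene, had 19 counts or 0.902 FPKM with LINC00472 and 239 counts or 4.73 FPKM in the control, and was 5.83-fold lower. SERTAD4-AS1 had 14 counts with LINC00472 and 193 in the control, a 6.36-fold lower level. All 3 stood well below the control beyond counting error. The others of the 10 with the lowest upper bound were AGAP2-AS1 (65 counts with LINC00472 and 481 in the control), FOXN3-AS1 (13 with LINC00472, 130 in the control), FLVCR1-AS1 (45 with LINC00472, 338 in the control), PRRT3-AS1 (69 with LINC00472, 413 in the control) and ZBTB11-AS1 (110 with LINC00472, 606 in the control). Their log2 ratios lay between -2.20 and -1.37, and that of ZBTB11-AS1 came to -0.98 with upper quartile factors and to -0.99 in FPKM with 0.5 added, both short of the rule. The adjusted log2 ratio of PRRT3-AS1 was -0.89, which ends its call.

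**Figure D3:**
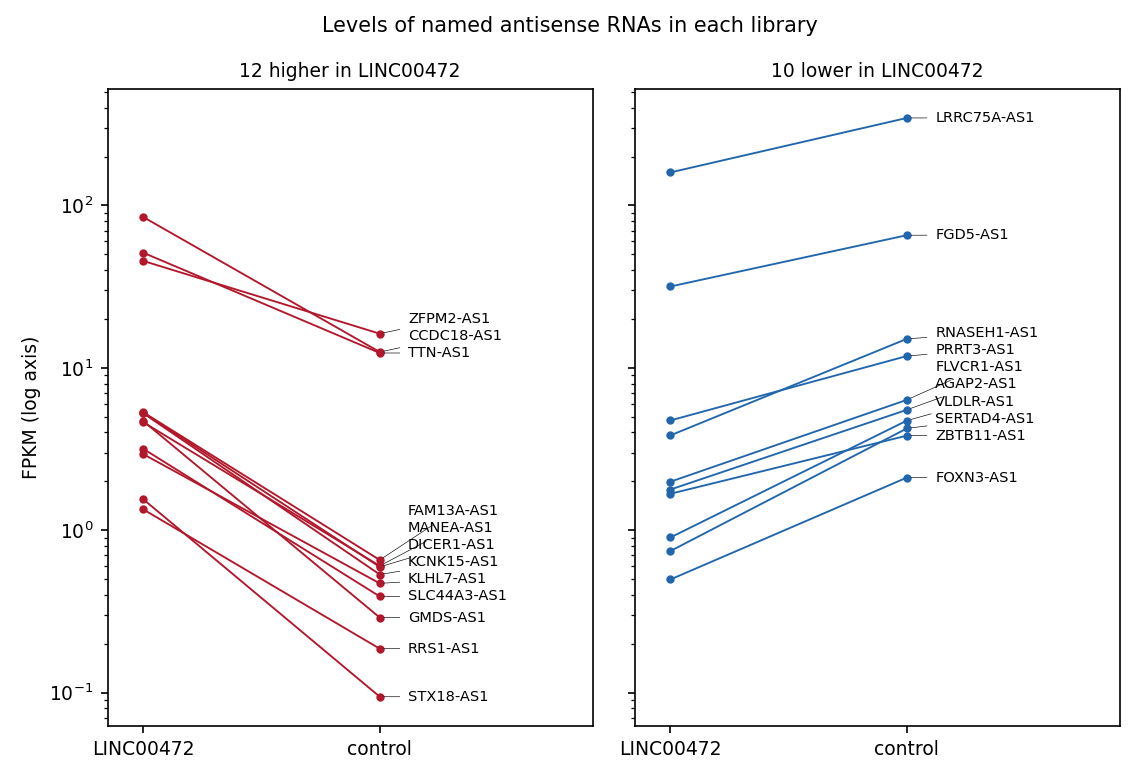
Deposited FPKM (log axis) of 22 named antisense RNAs, with the LINC00472 library and the control library as separate points and 1 library per group, hence no error bars; 12 were higher and 10 lower in the LINC00472 library. GMDS-AS1 and STX18-AS1 lie farthest apart among those higher, and LRRC75A-AS1 is the most abundant of all in both libraries.

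Of the 263 members, 231 could be placed against the partner in GENCODE 29, and all 231 lie on the opposite strand. The head-to-head arrangement, with start sites at most 1000 bases apart, held 161 members, of which 62 were higher and 9 lower, and the median log2 ratio was 0.63. Of 45 tail-to-tail members 21 were higher and 3 lower, and the median was 0.98. The 5 members inside the partner had 2 higher and 1 lower, and the 20 in other arrangements had 8 higher and 1 lower. Higher calls outnumbered lower calls in each arrangement. Where exons overlap those of the partner, 67 of 156 members were higher and 9 lower, and the median was 0.82. Where they do not overlap, 26 of 75 were higher and 5 lower, and the median was 0.53. Overlap was judged in GENCODE 29, which need not match the annotation used for counting, and the part of partner reads in the shift was not tested. RefSeq has since renamed 43 of the members as divergent transcripts, of which 18 were higher and 3 lower, and the median was 0.71.

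Transcript length moved with the ratio in all genes. Members of known length were split into 3 groups by it. Of the 79 shortest antisense RNAs 30 were higher and 11 lower, and their median log2 ratio was 0.57 against -1.06 for all genes of those lengths. Of the 78 of middle length 27 were higher and 2 lower, and their median was 0.61 against -0.52. Of the 78 longest 37 were higher and 2 lower, and their median was 0.95 against -0.08. Members stood above genes of like length in each group, and 11 of the 15 members of known length that were called lower were among the shortest. Ratios adjusted for GC content and for the lengths of transcript and introns had a median of 0.89 over 235 members and of -0.33 over 13123 genes. The part of RNA quality or library preparation in this relation to length was not tested.

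For 71 members RefSeq places the start at most 250 bases from the partner's start on the other strand, so that a 300-base window, 250 bases before and 50 after the antisense start, holds both. The distance ran from 13 to 250 bases with a median of 115. Of these 71 members 30 were higher, 3 lower and 38 neither, with a median log2 ratio of 0.76. Their partners had a median of -0.08, with 6 higher and 16 lower of 70 pairs. The windows of 6 of these pairs are printed because both start sites lie in one short stretch while the antisense RNA and its partner differed, 3 with the antisense RNA higher (STX18-AS1, GMDS-AS1 and DICER1-AS1) and 3 with it lower relative to the partner (FLVCR1-AS1, RNASEH1-AS1 and TRIM52-AS1). Each is read 5′ to 3′ along the antisense strand, from RefSeq on GRCh38.p14, and capitals mark the bases between the partner's start and the antisense start.
STX18-AS1: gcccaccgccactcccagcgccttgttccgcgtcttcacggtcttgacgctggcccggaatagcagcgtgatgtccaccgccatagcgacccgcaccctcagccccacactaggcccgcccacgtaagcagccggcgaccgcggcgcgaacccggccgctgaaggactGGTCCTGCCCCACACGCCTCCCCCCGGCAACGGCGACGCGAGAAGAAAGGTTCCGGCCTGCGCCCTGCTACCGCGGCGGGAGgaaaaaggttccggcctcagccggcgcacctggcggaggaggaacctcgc
GMDS-AS1: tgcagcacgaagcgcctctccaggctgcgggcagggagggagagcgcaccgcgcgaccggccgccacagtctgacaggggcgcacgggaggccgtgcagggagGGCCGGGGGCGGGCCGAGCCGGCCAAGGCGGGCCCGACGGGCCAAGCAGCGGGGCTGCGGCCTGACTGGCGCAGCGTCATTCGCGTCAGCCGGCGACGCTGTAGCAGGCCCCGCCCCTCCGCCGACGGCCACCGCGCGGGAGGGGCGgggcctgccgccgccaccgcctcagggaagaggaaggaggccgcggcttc
DICER1-AS1: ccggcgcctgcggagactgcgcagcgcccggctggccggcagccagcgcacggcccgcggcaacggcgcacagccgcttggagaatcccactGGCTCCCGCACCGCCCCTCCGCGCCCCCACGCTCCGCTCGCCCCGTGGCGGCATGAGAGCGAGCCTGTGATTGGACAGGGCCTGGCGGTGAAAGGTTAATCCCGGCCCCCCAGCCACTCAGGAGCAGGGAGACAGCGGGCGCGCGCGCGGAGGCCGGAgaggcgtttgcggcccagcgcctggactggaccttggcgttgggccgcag
FLVCR1-AS1: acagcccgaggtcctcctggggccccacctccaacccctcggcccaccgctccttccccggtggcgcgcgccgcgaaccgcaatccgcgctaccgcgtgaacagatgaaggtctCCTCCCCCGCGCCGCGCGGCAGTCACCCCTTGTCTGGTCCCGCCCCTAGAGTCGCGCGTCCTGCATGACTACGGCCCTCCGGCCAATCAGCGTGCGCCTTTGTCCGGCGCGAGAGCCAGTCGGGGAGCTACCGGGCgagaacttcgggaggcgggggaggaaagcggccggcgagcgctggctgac
RNASEH1-AS1: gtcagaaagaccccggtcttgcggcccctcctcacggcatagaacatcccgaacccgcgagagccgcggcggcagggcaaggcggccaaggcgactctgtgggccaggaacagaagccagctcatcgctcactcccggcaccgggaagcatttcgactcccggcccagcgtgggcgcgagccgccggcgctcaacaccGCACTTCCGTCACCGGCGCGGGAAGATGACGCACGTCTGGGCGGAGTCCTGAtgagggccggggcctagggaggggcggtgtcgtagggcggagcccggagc
TRIM52-AS1: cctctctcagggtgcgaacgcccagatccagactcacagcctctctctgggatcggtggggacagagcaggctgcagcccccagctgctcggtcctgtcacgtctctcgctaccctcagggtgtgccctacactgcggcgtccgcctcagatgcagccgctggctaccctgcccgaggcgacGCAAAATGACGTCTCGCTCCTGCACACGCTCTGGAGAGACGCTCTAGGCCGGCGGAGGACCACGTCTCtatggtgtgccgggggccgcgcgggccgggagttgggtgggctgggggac

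Distances given next run from start to start, and the capitals, which leave out both start bases, are fewer. The STX18-AS1 window is chr4:4541881-4542180 on the plus strand, with a distance of 83 bases and 37 CpG dinucleotides. That of GMDS-AS1 is chr6:2245503-2245802, plus strand, with 148 bases and 41 CpG. That of DICER1-AS1 is chr14:95157438-95157737, plus strand, with 159 bases and 38 CpG. The FLVCR1-AS1 window is chr1:212858089-212858388 on the minus strand, with 137 bases and 39 CpG. That of RNASEH1-AS1 is chr2:3558136-3558435, plus strand, with 53 bases and 35 CpG, and that of TRIM52-AS1 is chr5:181260962-181261261, plus strand, with 69 bases and 25 CpG.

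The table held windows for 213 of the 263 members, 254 windows in all, among 35116 windows of all genes. The median number of CpG was 26 in the antisense windows and 14 in all windows. GGGCGG, the core letters bound by SP1-type factors, was in 62.2% of antisense windows on either strand and in 45.0% of all windows. CCAAT was in 27.6% against 34.6%, and TATAAA, the TATA box letters, in 7.09% against 11.5%. CCGGAAGT, the letters of an ETS-type site, was in 6.69% against 4.14%, and the NRF1-type motif in 3.94% against 1.24%. None of the 5 motifs contains another, and a match is a description of the letters alone. Of 104 windows of antisense RNAs called higher 63.5% held GGGCGG and 27.9% held CCAAT, and of 18 windows of those called lower 61.1% and 50%. Among the printed windows GGGCGG is in all but that of TRIM52-AS1, CCAAT is in those of DICER1-AS1 and FLVCR1-AS1, and none holds the other 3 motifs.

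Values of both genes were available for 227 pairs, in which antisense RNA and partner each had a summed count of at least 100. The partner symbol was absent from the table for 5 members and under the minimum for 31. The 226 distinct partners, of which 223 are protein-coding, did not share the antisense shift. Of these partners 21 were higher and 52 lower, or 9.29% and 23.0%, against 14.5% and 24.7% of all genes. Their median log2 ratio was -0.29, near the -0.23 of all genes. This split depends on scaling, as does that of all genes. With total counts 40 partners were higher and 35 lower, beside 20.2% and 17.0% of all genes. With upper quartile factors 44 were higher and 32 lower, beside 22.7% and 14.8% of all genes, and the partner median was 0.098.

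Within each pair, the ratio of antisense to partner counts was compared between libraries, a measure from which library scaling cancels. The antisense-to-partner ratio was at least 2-fold higher in the LINC00472 library, with a 95% counting interval excluding equality, in 106 of the 227 pairs, or 46.7%. It was lower by the same rule in 20 pairs, or 8.81%, and neither in 101. No background share stands beside these, because other long noncoding RNAs and other genes were not paired in the same way. Over the pairs the median log2 ratio was 0.77 for antisense RNAs and -0.27 for partners. The 2 sets thus differed as a whole, and nothing particular to the pairing is read from the share. The median difference, antisense minus partner on the log2 scale, was 0.79, a 1.73-fold higher ratio, with quartiles of -0.09 and 1.87, and it lay above 0 in 166 pairs. Pairs with no exon overlap had 29 higher and 6 lower of 70, with a median of 0.64. The 70 pairs that start within 250 bases of each other had 35 higher and 7 lower, and the median was 0.91. In levels per length, the antisense RNA was above its partner in 49 pairs in the LINC00472 library and in 34 pairs in the control. Median antisense FPKM over pairs was 3.27 with LINC00472 and 1.89 in the control, and median partner FPKM was 12.5 with LINC00472 and 12.9 in the control.

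Across pairs the log2 ratio of the antisense RNA did not run with that of the partner. Pearson's r was 0.03 and Spearman's rho 0.03 over 227 pairs, all from the same 2 libraries and scaled by the same factors. Over the 36 tail-to-tail pairs r was 0.30 and rho 0.28, and over the 155 head-to-head pairs r was -0.03. Exons overlap in 33 of the 36 tail-to-tail pairs, so reads shared across strands and transcripts that vary together cannot be told apart there. Of the 94 pairs with a higher antisense RNA, 10 had a higher partner, 24 a lower partner and 60 neither. Of the 12 pairs with a lower antisense RNA, 1 had a higher partner, 2 a lower partner and 9 neither.

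**Figure D4:**
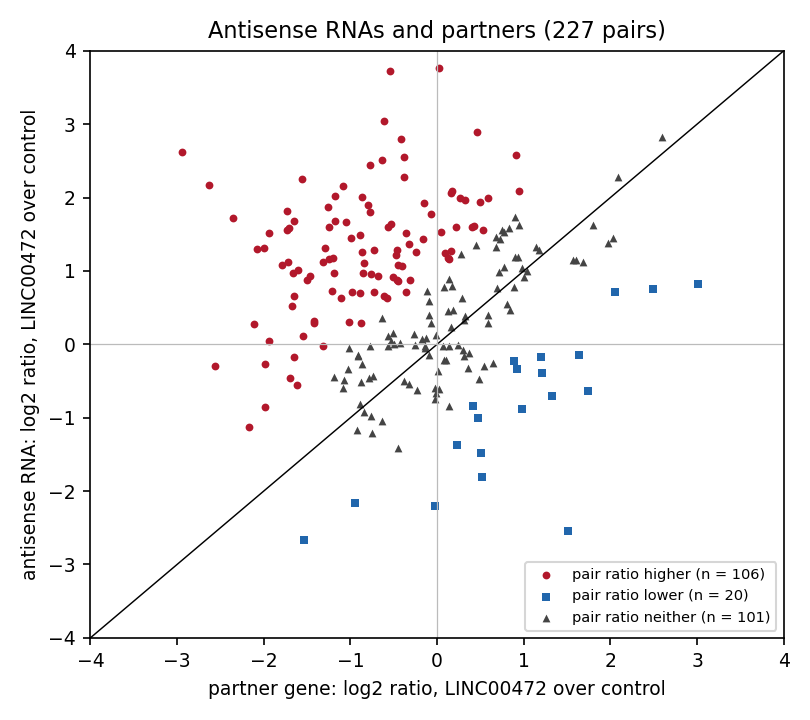
Log2 ratio of each antisense RNA (LINC00472 over control) against that of its partner, for 227 pairs marked by whether the antisense-to-partner ratio was higher, lower or neither; the diagonal marks equal change. Most pairs, 166 of 227, lie on the antisense side of the diagonal, with no common slope (Pearson's r 0.03).

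The 5 pairs with the highest lower interval bound of the difference were those of RRS1-AS1, MIF-AS1, STX18-AS1, CBR3-AS1 and VIM-AS1, which combined a higher antisense RNA with a partner that was lower or neither. RRS1-AS1 had 138 counts with LINC00472 and 47 in the control, while RRS1 had 121 with LINC00472 and 1979 in the control. Per length, RRS1-AS1 had 1.34 FPKM with LINC00472 and 0.186 in the control, while RRS1 had 2.99 with LINC00472 and 20.4 in the control. From the counts, the difference of their log2 ratios was 5.57 (interval 5.03 to 6.11). MIF-AS1 had 69 counts with LINC00472 and 32 in the control, while MIF, a cytokine gene, had 883 with LINC00472 and 11624 in the control, a difference of 4.81. VIM-AS1 had 225 counts with LINC00472 and 136 in the control, while VIM, which encodes the intermediate filament vimentin, had 7362 with LINC00472 and 52063 in the control, a difference of 3.55. CBR3-AS1 had 64 counts with LINC00472 and 41 in the control, while CBR3, a carbonyl reductase gene, had 51 with LINC00472 and 558 in the control, a difference of 4.08. In these 4 pairs the antisense RNA was called higher and the partner lower. STX18-AS1 differed from STX18 by 4.28, and there the partner was neither, at 517 counts with LINC00472 and 1598 in the control. GMDS-AS1 differed from GMDS by 3.75, with GMDS at 135 counts with LINC00472 and 284 in the control (log2 0.02).

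VLDLR-AS1 was the 1 pair with a lower antisense RNA and a higher partner. Against its 19 counts with LINC00472 and 239 in the control, VLDLR had 2078 with LINC00472 and 1557 in the control, or 16.9 FPKM with LINC00472 and 5.24 in the control. The difference was -4.03 (interval -4.71 to -3.36), although 738 exon bases of the pair overlap. TRIM52-AS1 (95 counts with LINC00472 and 316 in the control) differed from TRIM52 (829 with LINC00472, 528 in the control) by -2.38, with the partner called higher and the antisense RNA neither. FLVCR1-AS1 (gene ID 642946), beside a heme and choline transporter gene, differed from FLVCR1 (1022 counts with LINC00472 and 1524 in the control) by -2.32. PRRT3-AS1 differed from PRRT3 by -1.99. CCDC144NL-AS1 (531 with LINC00472, 641 in the control) differed from CCDC144NL (323 with LINC00472, 85 in the control) by -2.19, but these genes have near-identical copies elsewhere in the genome and their counts are uncertain.

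Both genes of a few named pairs moved the same way. FAM13A-AS1 and FAM13A, which overlap tail to tail over 825 exon bases, were both higher, FAM13A at 129 counts with LINC00472 and 45 in the control (log2 2.59), and their difference of 0.23 had an interval of -0.34 to 0.80. SERTAD4-AS1 and SERTAD4 were both lower, SERTAD4 with a log2 ratio of -1.54. In others the partner leaned the same way without reaching the rule. RNASEH1 had 495 counts with LINC00472 and 2029 in the control (log2 -0.95), and the pair differed by -1.22. CCDC18 had 5688 counts with LINC00472 and 6434 in the control (log2 0.91), and CCDC18-AS1 exceeded it by 1.66. DICER1 had 12225 counts with LINC00472 and 18880 in the control (log2 0.46), and DICER1-AS1 exceeded it by 2.45. TTN, unlike these, leaned the other way from its antisense RNA, which was higher. It had 26 counts with LINC00472 and 95 in the control, or 0.00980 FPKM with LINC00472 and 0.0152 in the control. Of the exon bases of TTN-AS1 and TTN 11381 overlap, so the counts of TTN itself are uncertain.

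**Figure D5:**
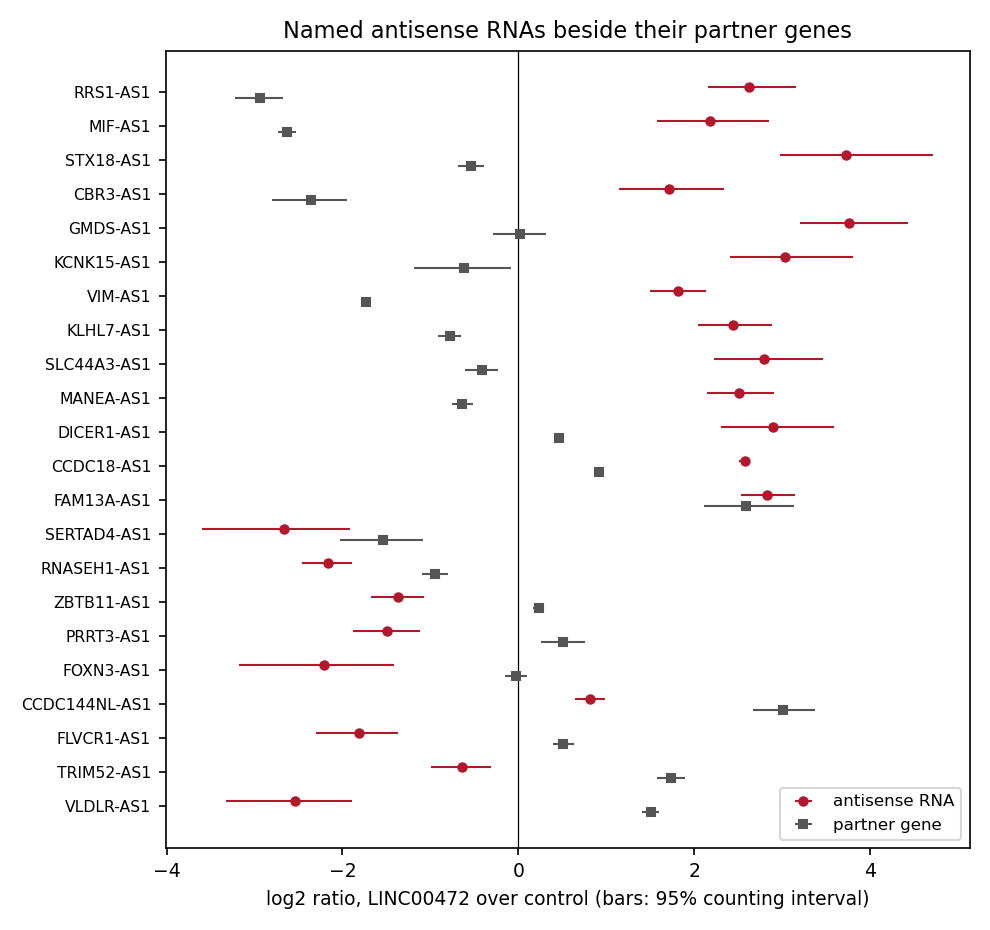
Log2 ratio (LINC00472 over control) of the antisense RNA and of its partner for 22 named pairs, with bars for the 95% counting interval. RRS1-AS1, MIF-AS1, VIM-AS1 and CBR3-AS1 lie above 0 with the partner below it, and VLDLR-AS1 shows the opposite.

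Members were also grouped by what the partner gene does, to be read beside the 41.1% higher and 6.08% lower of all antisense RNAs and the 14.5% and 24.7% of all genes, with medians of 0.72 and -0.23. These lists are short, and nothing particular to any of them is read from its count. Of 12 antisense RNAs beside genes of RNA processing and translation, 7 were higher and 0 lower, and the median log2 ratio was 1.06, while 1 of their 12 partners was higher and 3 lower. Besides DICER1-AS1 these were led by INTS6-AS1, beside a subunit of the Integrator complex, at 237 counts with LINC00472 and 131 in the control (log2 1.94). SRP14-AS1, beside a subunit of the signal recognition particle, had 135 with LINC00472 and 78 in the control (log2 1.87), and its partner SRP14 was lower (log2 -1.26). PCBP1-AS1, beside a poly(C)-binding protein gene, had 229 with LINC00472 and 165 in the control (log2 1.56), with PCBP1 lower (log2 -1.73). Of 10 beside genes of mitochondrial proteins 5 were higher and none lower, and the median was 0.90. SLC25A5-AS1, beside a gene for an ADP/ATP carrier, had 87 counts with LINC00472 and 74 in the control (log2 1.32), with SLC25A5 lower (31.8 FPKM with LINC00472 and 112 in the control).

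Of 16 beside transcription factor genes 6 were higher and 2 lower, and the median was 0.41. PAX8-AS1 led them with 993 counts or 18.2 FPKM with LINC00472 and 594 counts or 5.00 FPKM in the control (log2 1.83), and FOXN3-AS1 was the lowest. GABPB1-AS1, beside a subunit of an ETS-type factor, had 3140 counts or 32.3 FPKM with LINC00472 and 2207 counts or 9.38 FPKM in the control (log2 1.60), with GABPB1 neither (log2 -0.57). FOXD2-AS1 had 131 counts with LINC00472 and 89 in the control (log2 1.64). The HOX clusters gave 2 members that went opposite ways, HOXB-AS1 at 70 counts with LINC00472 and 46 in the control (log2 1.68) and HOXD-AS2 at 16 with LINC00472 and 119 in the control (log2 -1.79).

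Of 13 beside genes of the cytoskeleton, adhesion and matrix, 4 were higher and 1 lower, and the median was 0.72. They include VIM-AS1 and MYLK-AS1, beside the myosin light chain kinase gene, which had 130 counts with LINC00472 and 119 in the control (log2 1.21). ADAMTSL4-AS1 had 70 with LINC00472 and 61 in the control (log2 1.28), and its partner was higher as well (log2 1.17). RASAL2-AS1, beside a RAS GTPase-activating protein gene, had 241 counts with LINC00472 and 171 in the control (log2 1.58), and DENND5B-AS1 had 239 in each (log2 1.09 after scaling). Of 30 antisense RNAs often studied in tumour cells, 11 were higher and 3 lower, and the median was 0.49, and 1 of their 25 partners was higher and 6 lower. In each of these lists but that of the HOX clusters, higher calls outnumbered lower ones, as they did over all members.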

How the data were processed

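Total RNA of 2 transfected NCI-H838 cultures was measured, grouped by the sample titles. Per the file headers, the deposited values are raw read counts by gene, with no scaling, beside the authors' FPKM, both in 1 table of the series and in 1 table per library. Counts were identical between these tables for all 27685 genes. Tools in the submitters' processing notes, with no role or order, are StringTie 1.3.4b, HISAT2 2.1.0, Trimmomatic and bcl2fastq 2.20.0, and the build is hg19. Not given in the sources used here are the counter, its strand setting and how ribosomal RNA was removed.

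Deposited counts were scaled with TMM factors (1.11 for LINC00472 and 0.905 for the control) in edgeR 4.0.16 under R 4.3.3, without its test, since each group held 1 library. The prior count of the log2 ratio was 0.5, in proportion to library size. Intervals are exact conditional Clopper-Pearson 95% intervals that cover counting error alone, since reads are not independent molecules. Calls were made over all 13482 genes with a summed count of at least 100. The pair measure added 0.5 to each of the 4 counts and used a 95% interval of the log odds ratio. Adjusted ratios are residuals of splines (5 knots, degree 3) over 13123 genes (scikit-learn 1.9.0), to which the overall median was added. The procedure was tested on simulated counts with counting error alone, which cannot show how it does with spread between cultures.

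Arrangements came from GENCODE 29, matched by RefSeq transcript or else by NCBI gene ID, with the partner found by symbol. Names, gene types and promoter windows came from RefSeq (GRCh38.p14). The deposited files use hg19, so other coordinates are not printed. Named members were the 10 higher and 10 lower with the bound nearest to equality farthest from it, the 5 of highest mean FPKM, the 5 highest and 5 lowest pairs, up to 4 per list by absolute ratio, and those at the minimum. The members and the 7 lists were chosen with earlier results of these data known, and 1 list and some rows are not reported here. Alternatives were other scalings, including DESeq2 1.42.0 size factors, another prior, FPKM, other minimums and folds, and adjusted ratios. Scripts ran in Python 3.11.15 with scipy 1.17.1, pandas 2.3.3, matplotlib 3.10.9 and numpy 2.4.6.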

Additional observations from a re-analysis of the deposited data

How the results depend on the processing

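No paired analysis was possible because the labels give no replicate numbers and each group held 1 library. The 108 higher and 16 lower antisense RNAs, their median log2 ratio of 0.72, the 21 higher and 52 lower partners (median -0.29) and the 106 higher and 20 lower pairs (median 0.79) stayed within 1.5 times, or within 0.1 for medians, with DESeq2 size factors, a prior count of 5, the tables of single libraries and 5 added to each count of a pair. With total gene counts the antisense median was 1.01, 40 partners were higher and the partner median was -0.0016. With upper quartile factors 9 antisense RNAs were lower and their median was 1.11, while 44 partners were higher and 32 lower, and the partner median turned positive at 0.0979. Scaling moved the median of all genes of -0.23 to 0.05 (total counts) or 0.15 (upper quartile factors), and the pair measure does not depend on it. In FPKM with 0.5 added the partner median was -0.0584 and the pair median 0.67. With a summed count of at least 10, 222 antisense RNAs were higher and 36 lower (median 0.92), and 51 partners were higher and 107 lower (median -0.17). With at least 500, 33 antisense RNAs were higher and 7 lower, and 2 partners were higher and 14 lower. A mean of at least 1 CPM gave an antisense median of 0.85. Adjusted for GC content and for the lengths of transcript and introns, 9 antisense RNAs were lower, with a median of 0.89 and a partner median of -0.46. At 1.5-fold 32 antisense RNAs were lower, and 46 partners were higher and 86 lower. At 3-fold 53 antisense RNAs were higher and 7 lower, 12 partners were higher and 25 lower, and 12 pairs were lower. With partner counts of at least 1000, 13 pairs were lower and the median was 0.94. Pairs without exon overlap had 29 higher and 6 lower (median 0.64). Other minimums, folds and pair sets change how many genes are counted by their construction, and the cause of the other shifts was not tested. Of 44 named antisense RNAs, CCDC144NL-AS1 reached the 2-fold rule at 1.11 under total counts and 1.21 under upper quartile factors, and FGD5-AS1 lost its call with total counts (-0.94), upper quartile factors (-0.84) and adjustment (-0.95), LRRC75A-AS1 with upper quartile factors (-0.96) and adjustment (-0.74), ZBTB11-AS1 with upper quartile factors (-0.98) and FPKM (-0.99), and PRRT3-AS1 (-0.89) and ZFPM2-AS1 (0.92) with adjustment. One culture per group, with 2.13 times the scaled depth in the control, leaves members of few counts with wide intervals.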

Other observations

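Below the minimum, 361 rows with an antisense name had 1 to 99 counts. Of these, 56 had counts in the LINC00472 library alone, 62 in the control alone and 243 in both, and together they held 5479 counts with LINC00472 and 5555 in the control. The rows named next, with at least 20 counts in one library and none in the other, were chosen after their values were seen. LURAP1L-AS1 had 22 counts with LINC00472 and 0 in the control. It was 15.6-fold higher where a floor of 3 counts stands in for the 0, and its 95% counting interval began at log2 3.54. GSN-AS1 (31 control counts), MNX1-AS1 (28), PLCE1-AS1 (45) and LCMT1-AS2 (30) had 0 counts in the LINC00472 library. They were 4.39-fold to 7.05-fold lower there against the same floor, with upper interval bounds between log2 -2.46 and -1.74. The floor replaces the count of 0 and leaves out the counting error of the other count, and the intervals cover counting error alone.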
